A study of Mus musculus with 13 samples.

Results

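The clustered protocadherins are the cadherin-like adhesion genes of the alpha, beta and gamma gene clusters, and they were taken here by symbol (Pcdha and Pcdhac, Pcdhb, and Pcdhga, Pcdhgb and Pcdhgc followed by a number). Of 26264 genes in the deposited data 58 carried such a symbol, 14 in the alpha, 22 in the beta and 22 in the gamma cluster. A total of 56 reached at least 10 normalized counts in at least 2 of the 13 libraries and were tested among 17755 genes. Pcdha4 and Pcdha7 did not, and were at 0 in every library. A normalized count is a gene's read count divided by the library's size factor.

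The libraries hold total RNA from the ventral tegmental area (VTA) of mice, sampled by tissue punch; this midbrain nucleus contains dopamine neurons that project to striatum and cortex. Male and female mice of strain C57BlJ/6 carried a virus for Setd7, a lysine methyltransferase that can methylate histone H3, or for green fluorescent protein (GFP), given at postnatal day 14. Tissue was taken in adulthood from mice with social defeat stress ("defeat") or without it ("control"). GFP virus was carried by 3 libraries without defeat (GFP control, with 1 female) and 4 libraries after it (GFP defeat, with 2 females). Setd7 virus was carried by 4 libraries without defeat (Setd7 control, with 2 females) and 2 libraries after it (Setd7 defeat, with 1 female). All animals therefore received a virus, and no group without virus was analysed here. The promoter of the virus, the cell types it enters and the adult age are not given in the sources used here. The labels do not say that each library is a separate animal, so p-values measure the spread between these samples.

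Clustered protocadherins are surface proteins that bind their own kind on a neighbouring membrane. In the alpha and gamma clusters each variable exon has its own promoter, encodes the extracellular and membrane-spanning parts, and is spliced to constant exons shared by the cluster; beta genes lack constant exons. A neuron switches on a few of the numbered variable exons by promoter choice, which depends on the insulator protein CTCF, on cohesin and on distant enhancers, whereas C-type exons (Pcdhac1, Pcdhac2, Pcdhgc3, Pcdhgc4 and Pcdhgc5) are switched on far more uniformly. The resulting combinations label single neurons and let their branches tell self from non-self, and Pcdhac2 is known for the even spread of serotonin axons.

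Reads counted in genes came to 26.5 to 50.8 mega-reads a library, and reads not assigned to a gene are not in this number. Setd7 itself was at 10888 to 14538 normalized counts in the 7 GFP libraries and 28587 to 158681 in the 6 Setd7 libraries, without overlap (exact permutation test, two-sided, p = 0.000583). Marker levels differed between punches. The sum of 10 dopamine neuron markers ran from 26546 to 126705, that of 8 thalamus markers from 18010.0 to 67387, and that of 8 markers of all neurons only from 223741 to 259703. Tyrosine hydroxylase (Th), which makes the dopamine precursor, was lowest in replicates 2 and 3 of GFP control and in replicate 1 of GFP defeat, at 3392, 2508 and 2539 against 9759.5 or more in the other libraries. Of 64 cell type markers, limma and edgeR called 0 in any of the 8 comparisons below and DESeq2 called 0 to 2 a comparison, with 4 to 13 at an unadjusted p under 0.05. That is 6.25 to 20.3% of the markers, where 2.59 to 9.25% of all genes were (most in Setd7 without defeat, 20.3% against 8.01%). DESeq2 called 0.00563 to 0.479% of all genes. No marker was at 0 in every library, and a single value was 0, that of the thalamus marker Gbx2 in Setd7 control replicate 1. Summed levels ran from 35413 to 58895 for 5 astrocyte, 5734 to 14739 for 5 microglia, 358007 to 550394 for 8 oligodendrocyte, 11785 to 14729.6 for 4 oligodendrocyte precursor and 6781 to 8618 for 3 endothelial markers. Setd7 defeat replicate 1 stood apart by its meningeal fibroblast markers (4225 summed, against at most 1546), and its column name in the table holds a longer number than its title, so whether it holds 1 animal is not settled.

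All 3 clusters were expressed in every library, and a C-type isoform was the most abundant of the alpha cluster (Pcdhac2) and of the gamma cluster (Pcdhgc3). Summed over its genes the gamma cluster held 15137 to 17758 normalized counts a library, the beta cluster 7953 to 10368 and the alpha cluster 3025 to 4151. Within the sum of all clusters the gamma share was 52.4 to 59.8%, the beta share 28.4 to 34.9% and the alpha share 10.5 to 13.8%. These shares are of counts, and the clusters differ in the number and length of their genes.

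**Figure D1:**
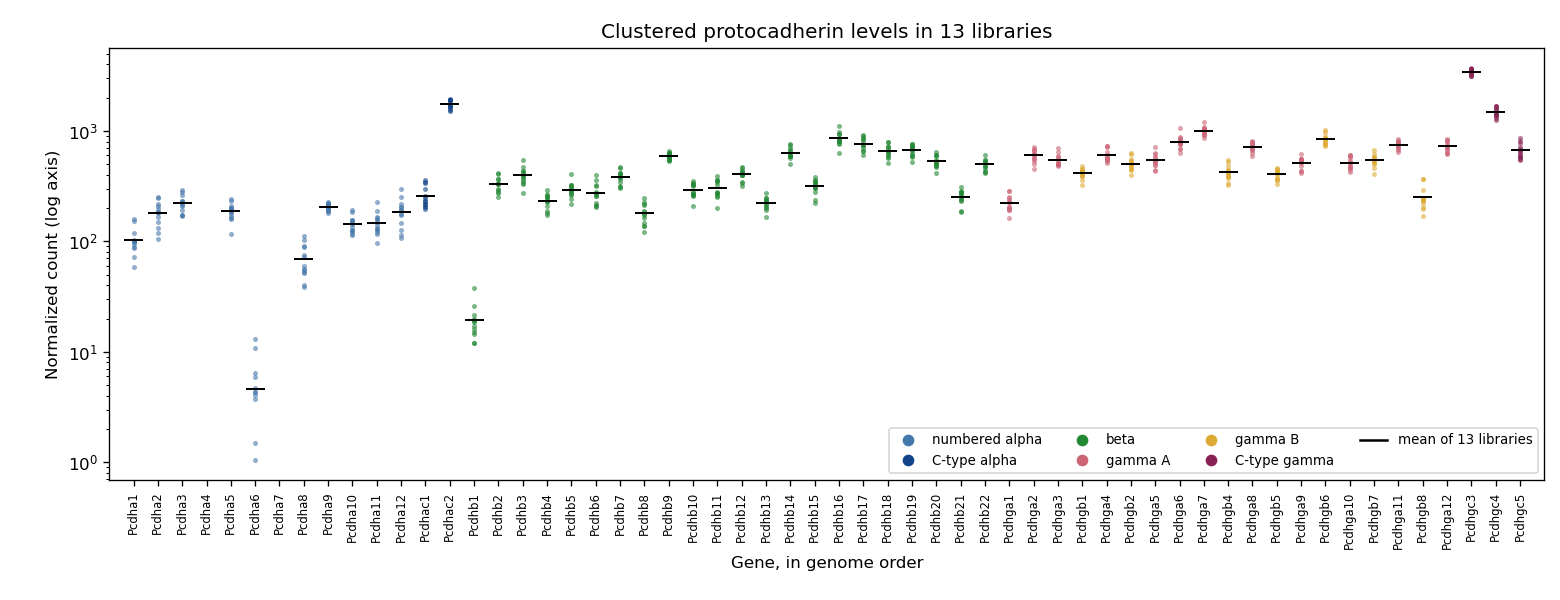
Normalized count (log axis) of each clustered protocadherin gene in genome order; points are the 13 libraries, bars their mean, colours the subgroups. Pcdhgc3 (mean 3439) and Pcdhac2 (mean 1754) stand above the genes of their clusters, Pcdha6 (mean 4.61) and Pcdhb1 (mean 19.2) below theirs, and Pcdha4 and Pcdha7 have no points because all their values are 0.

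Levels between genes were compared per kilobase of the gene's first exon, which for alpha and gamma genes is the variable exon. The count divided was that of the whole gene. How reads in constant exons entered it is not given, so levels of alpha and gamma genes beside beta genes are uncertain. Pcdhgc3, a gamma C-type isoform that promotes dendrite growth in cortical neurons, had the highest level, 1339 normalized counts per kilobase. Its count was 3130.5 to 3735, which was 20.9% (18.3 to 24%) of the gamma sum. Pcdhac2 followed with 579 per kilobase and a count of 1526 to 1963, and made up 50.8% (44.4 to 57.6%) of the alpha sum, about as much as the other 13 alpha genes together. Pcdhgc4, a C-type isoform needed for the survival of certain neurons, reached 507 per kilobase and a count of 1264 to 1686. The other C-type isoforms were lower, with 254 per kilobase for Pcdhgc5 (count 549.7 to 863) and 101 for Pcdhac1 (count 197 to 361). C-type genes thus differed among themselves in level per kilobase, from 101 to 1339.

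Levels of the numbered genes differed by subgroup. The 10 tested numbered alpha genes had a median of 65.4 normalized counts per kilobase (from 1.84 to 89.4), and 22 beta genes a median of 98 (from 7.43 to 193). The medians were 232 for 12 gamma A genes (from 87 to 384) and 182 for the 6 gamma B genes with an annotated length (from 159 to 326). The ranges of gamma B and numbered alpha genes did not overlap, and the lowest gamma A gene lay within the alpha range. Among the alpha genes the largest mean counts were those of Pcdha3 (221), Pcdha9 (205) and Pcdha5 (187). In the beta cluster they were those of Pcdhb16 (853), Pcdhb17 (762) and Pcdhb19 (667), of which Pcdhb19 has the longest exon and only 93.5 per kilobase. The plot of levels in genome order shows these as the upper points of the beta cluster. Among gamma A genes Pcdhga7 (1004), Pcdhga6 (792) and Pcdhga11 (746) had the largest mean counts, and among gamma B genes Pcdhgb6 (837), Pcdhgb7 (543) and Pcdhgb2 (506). Pcdhgb8 is annotated as a transcribed pseudogene and had a mean count of 250.4.

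Some alpha genes stood at or near 0. Pcdha6 passed the filter narrowly: its counts were with GFP 13, 4.28 and 6.46 (control) and 3.74, 1.04, 5.87 and 0 (defeat), and with Setd7 10.9, 1.48, 4.31 and 4.08 (control) and 0 and 4.69 (defeat), from 57 reads in all. Pcdhb1, whose promoter lacks the conserved element of most numbered genes, was next with 12 to 38.1. Pcdha4 and Pcdha7, just outside, had 0 reads in all libraries, where up to 3 reads of the 479 mega-reads counted in genes would be allowed by counting error. RefSeq (GRCm38.p6) lists readthrough protein-coding genes that start beside Pcdha4, Pcdha6 and Pcdha7 and reach the end of the gamma cluster. Those genes, Gm37013, Gm38666 and Gm38667, held at most 2.97, 0 and 2.35 normalized counts. How reads that overlap several genes were counted is not given in the sources used here, and its part in the 0 values was not tested. How reads in the shared constant exons were split between isoforms is likewise not given.

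The clusters varied little between libraries as sums and more as single genes. The coefficient of variation (CV, the SD over the 13 libraries as a percentage of the mean) was 4.88% for the gamma sum, 8.01% for the beta sum and 8.52% for the alpha sum. For single genes with a mean of at least 30 it had a median of 13.4% over 54 members and of 11.3% over 14997 tested genes. Numbered alpha genes had the widest spread, with a median CV of 22.8%, against 13.9% for beta, 12.3% for gamma A and 12.3% for gamma B genes. Pcdha8 (33.8%) and Pcdha12 (29.7%) had the largest values. Pcdhgc3 (6.03%) and Pcdha9 (6.84%) had the smallest. Lower counts carry more counting error, so Pcdha8 (mean count 68.7) and Pcdhgc3 (mean count 3439) differ in that respect too. Pcdha9 and Pcdha12 have similar means (205 and 186), yet Pcdha9 ran from 182 to 225 and Pcdha12 from 106 to 301.

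In some libraries most genes of a cluster lay on the same side of their means. In GFP control replicate 3 all 12 tested alpha genes were above their own mean over the 13 libraries (median deviation 0.43 on the log2 scale), and the lowest medians were -0.26 in Setd7 defeat replicate 1, -0.17 in Setd7 control replicate 2 and -0.16 in Setd7 defeat replicate 2. In these libraries 2, 4 and 2 of 12 alpha genes were above their mean. The beta genes had other extremes. They were highest in GFP defeat replicate 2 (median deviation 0.23, 18 of 22 above their mean) and lowest in Setd7 control replicate 3 (-0.18, 3 of 22). Gamma genes were highest in GFP defeat replicate 1 (0.14, 19 of 22) and lowest in Setd7 defeat replicate 1 (-0.14, 4 of 22). Over all members the lowest libraries were Setd7 defeat replicate 1 (-0.14) and Setd7 control replicate 1 (-0.098).

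**Figure D2:**
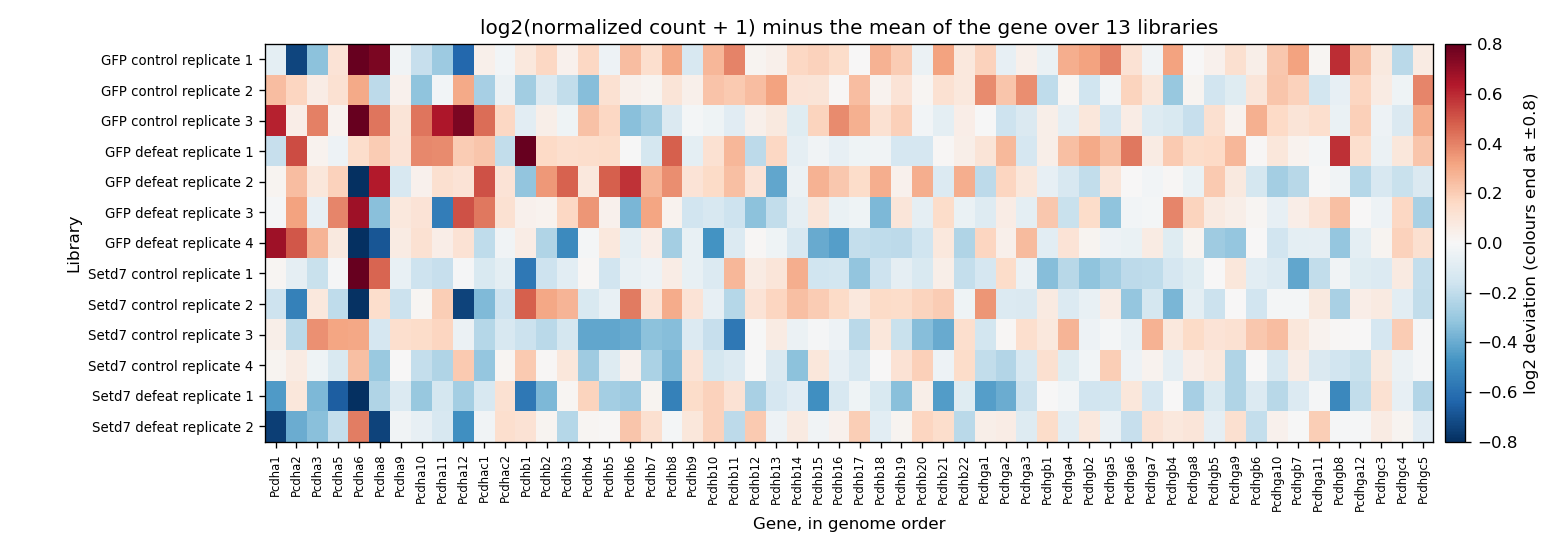
Deviation of each tested member (columns, in genome order) in each library (rows) from the gene's own mean, in log2 of the normalized count plus 1; red is above and blue below the mean, and colours end at the limits of the scale. The alpha genes at the left are red in GFP control replicate 3 (median 0.43) and mostly blue in both Setd7 defeat libraries (-0.26 and -0.16) and in Setd7 control replicate 2 (-0.17).

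The first comparison asks whether Setd7 virus goes with another level of these genes than GFP virus, averaged over defeat. Most members had slightly lower counts with Setd7, and 0 of 56 passed the test (limma, adjusted p under 0.05; background 0.00563% of genes called). edgeR and DESeq2 also called 0 members (background 0.00563% and 0.0394%). The 1 gene called by limma was Setd7 itself (adjusted p = 0.00861, limma). The same fit did not call Setd7 without defeat (adjusted p = 0.467, limma) or after it (adjusted p = 0.236, limma). Its counts did not overlap between the viruses, so 0 called members does not show that their levels are equal. A total of 47 of 56 members had a log2 difference below 0, where 49% of all genes did. The median was -0.13, against 0.0032 over all genes tested. At an unadjusted p under 0.05 there were 10 lower and 0 higher members, against 3.42% of all genes lower and 3.7% higher. The 10 were Pcdha1, Pcdha5, Pcdha8, Pcdha12, Pcdhac1, Pcdhb5, Pcdhb8, Pcdhb11, Pcdhga6 and Pcdhgc5, from all clusters. In 0 members were all Setd7 libraries below or above all GFP libraries (background 0.0732% and 0.062%). Without Setd7 defeat replicate 1 the median was -0.048. The members were measured in the same libraries, so they are not independent of each other. In bulk tissue fewer cells of a type and less RNA per cell cannot be told apart.

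**Figure D3:**
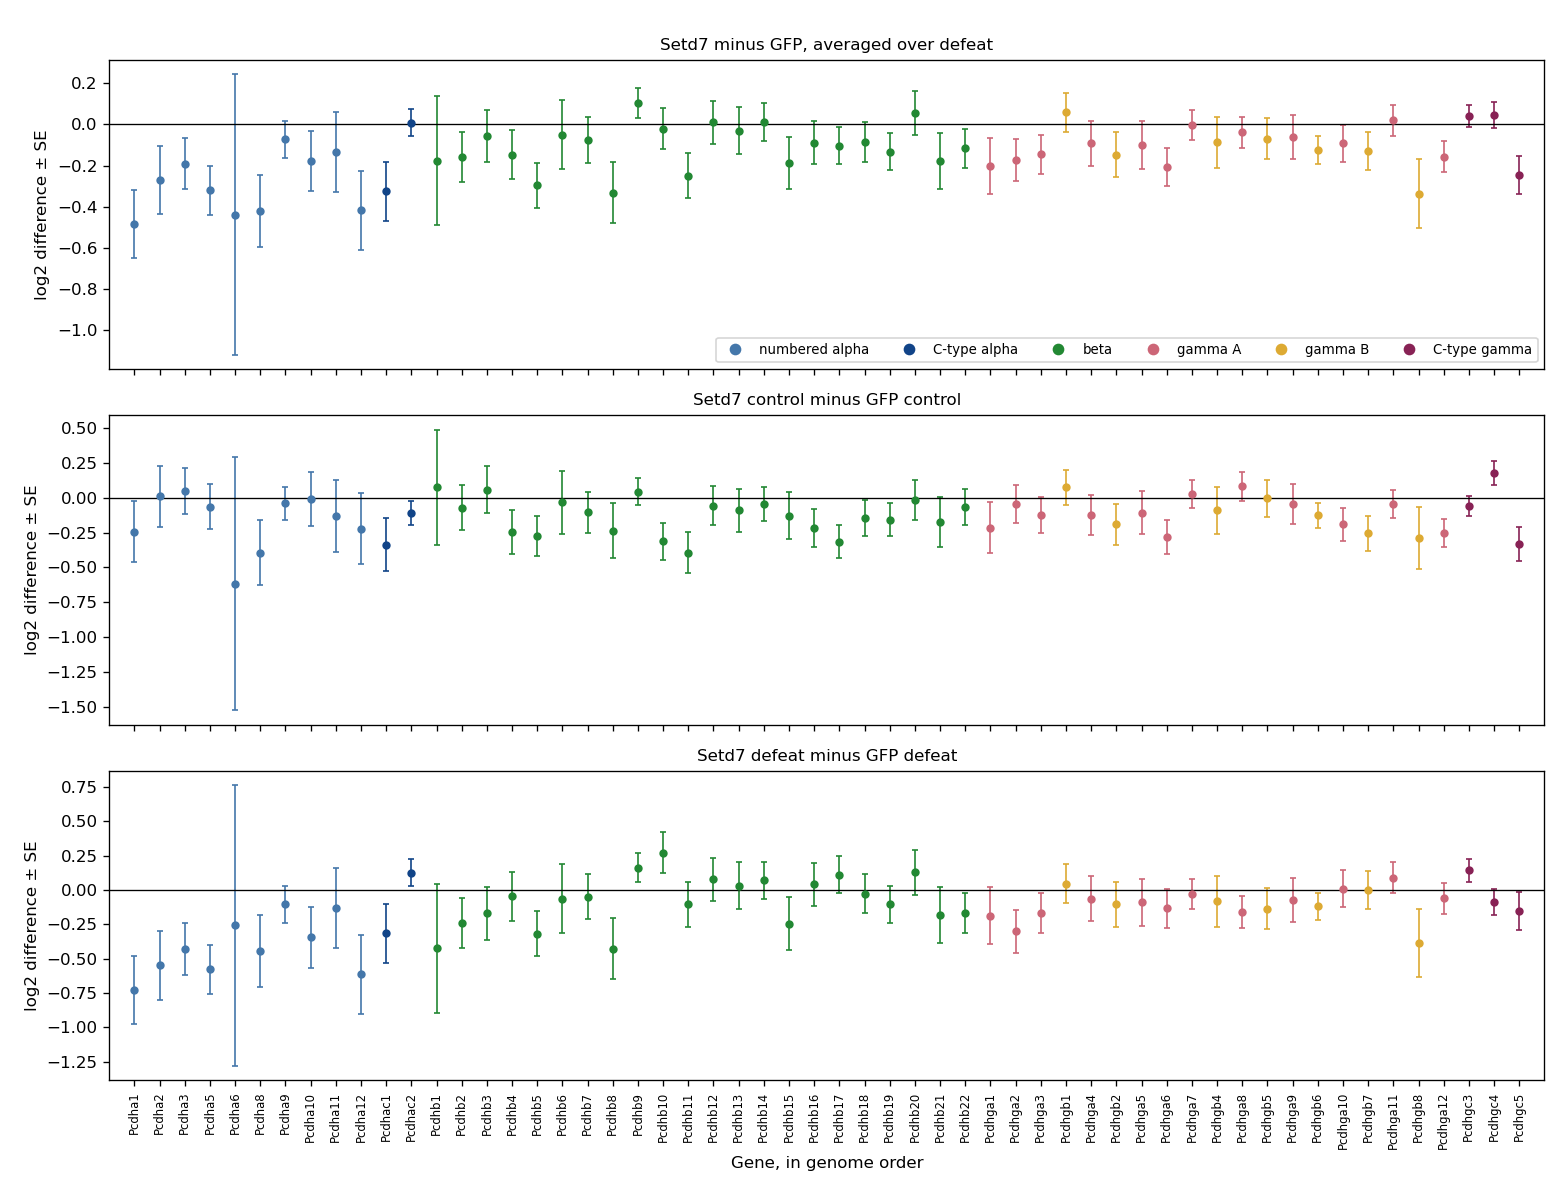
log2 difference ± SE (limma) of each tested member in genome order for Setd7 minus GFP, averaged over defeat (top), without defeat (middle) and after defeat (bottom), coloured by subgroup; the vertical scales differ. Most points lie below 0 (47, 47 and 43 of 56), with the numbered alpha genes lowest in the bottom panel and 0 members passing the test in any.

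The lowest values belonged to the alpha cluster. All 10 numbered alpha genes tested were lower under Setd7, and their median was -0.30 (from -0.49 to -0.072). Of 22 beta genes 18 were lower (median -0.096), of 12 gamma A genes 11 (median -0.096) and of 7 gamma B genes 6 (median -0.12). Summed per library the alpha cluster stood with GFP at 3231, 3389 and 4151 (control) and 3441, 3783, 3787 and 3551 (defeat), and with Setd7 at 3262, 3025, 3360.3 and 3354 (control) and 3315 and 3326 (defeat). The highest sums were all from GFP libraries, but GFP control replicate 1 lay below several Setd7 libraries, so the viruses overlapped. The beta sum (7953 to 10368 with GFP, 8133 to 9885 with Setd7) and the gamma sum (15562 to 17758 and 15137 to 17117) overlapped over most of their range.

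**Figure D4:**
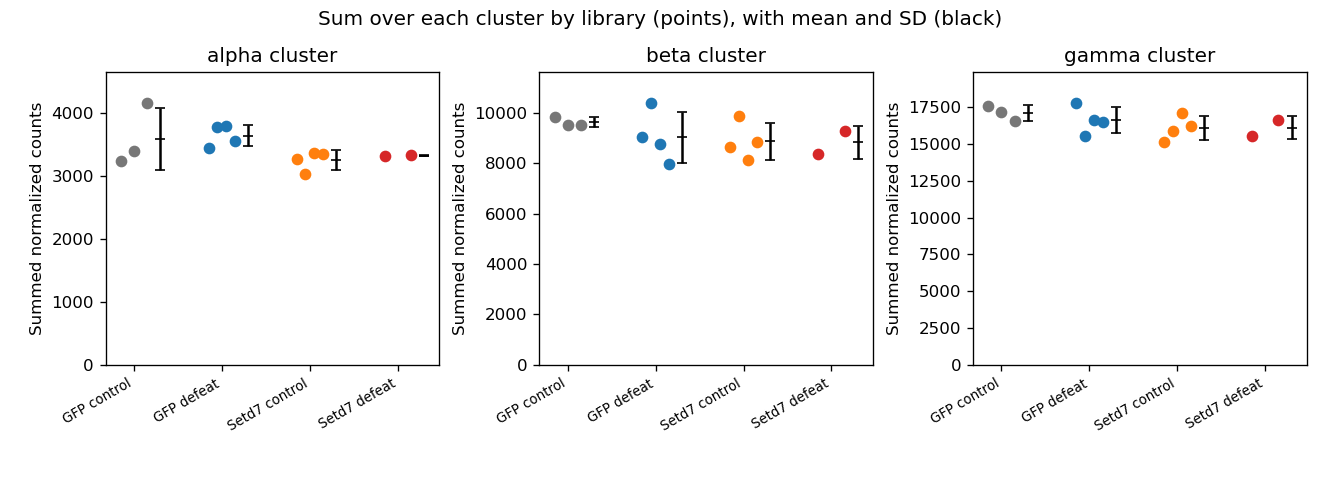
Sum of normalized counts over the genes of each cluster; points are libraries by group, black marks the group mean with SD. The alpha sum lies between 3025 and 3360.3 with Setd7 and between 3231 and 4151 with GFP, and the groups overlap more in the other clusters.

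Cell type markers also differed in level between the viruses. Every marker of a list was higher with Setd7 for dopamine neurons (10 of 10, 26546 to 114574 and 65533 to 126705), oligodendrocytes (8 of 8, 358007 to 550394 and 389764 to 529157), oligodendrocyte precursors (4 of 4, 11785 to 14729.6 and 12708 to 14312), microglia (5 of 5, 5734 to 7565 and 5841 to 14739), meningeal fibroblasts (5 of 5, 688 to 1265 and 843 to 4225) and endothelial cells (3 of 3, 6791 to 7506 and 6781 to 8618), the ranges being summed levels with GFP and with Setd7. Every marker was lower for serotonin neurons (4 of 4, 727 to 12258 and 2039.9 to 12566) and thalamus (8 of 8, 20362 to 67387 and 18010.0 to 26320.5). Of 4 markers of forebrain excitatory neurons 3 were lower (4925 to 17858 and 5063 to 8590.0). Of 8 markers of all neurons 6 were higher (median log2 difference 0.025), and of 5 astrocyte markers 4 (median 0.045). Sizes differed between lists, with a median of 0.64 for dopamine neuron and 0.028 for oligodendrocyte precursor markers. The part of the markers in the protocadherin values was not tested beyond the following. Without the 3 libraries of lowest Th, all from GFP groups, the median over all members was -0.11, with 45 of 56 lower, against -0.13 with them. For the numbered alpha genes the median was -0.098 without them and -0.30 with them. GFP control is then a lone library, assumed to vary like the other groups.

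Pcdha1 had the smallest p of the averaged comparison. Its counts were with GFP 93.9, 118 and 153 (control) and 87.4, 101, 98.7 and 159 (defeat), and with Setd7 100.5, 88.3, 102 and 101 (control) and 72.2 and 58.6 (defeat). Both Setd7 defeat libraries lay below every other library, while Setd7 control lay inside the range of GFP. The log2 difference was -0.49 ± 0.17 (SE), with an unadjusted p of 0.0119 and an adjusted p of 0.686 (limma). Pcdhb5, a beta gene, was at 282, 316 and 325 in GFP control and 259.9, 278, 217 and 269 in Setd7 control. After defeat it was at 321, 404, 296 and 306 with GFP and 239.7 and 291 with Setd7. Within each stress condition every Setd7 library was below every GFP library, although Setd7 defeat replicate 2 exceeded GFP control replicate 1. Its difference was -0.30 ± 0.11 (adjusted p = 0.686, limma). Pcdha5 differed by -0.32 ± 0.12 and Pcdhgc5 by -0.24 ± 0.092, at the same adjusted p of 0.686 (limma).

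The C-type isoforms had unlike averaged differences. Counts of Pcdhac1 were with GFP 259.5, 209.9 and 345 (control) and 295, 361, 338 and 219.7 (defeat), and with Setd7 233, 197, 216 and 204 (control) and 232 and 247 (defeat). The highest values were all from GFP libraries, but GFP also had values among the Setd7 ones. Its averaged difference was -0.33 ± 0.14 (adjusted p = 0.697, limma). Pcdhac2 differed by 0.0085 ± 0.065, Pcdhgc3 by 0.042 ± 0.054 and Pcdhgc4 by 0.046 ± 0.065, all within 1 SE of 0. The sign for Pcdhac2 turned with 6 of 23 alternative settings. The most abundant alpha isoform thus lay near 0 averaged over defeat, beside a median of -0.30 for the numbered genes of its cluster. These averages join differences of opposite sign. Pcdhac2 was at -0.11 without defeat and 0.12 after it, Pcdhgc3 at -0.057 and 0.14, and Pcdhgc4 at 0.18 and -0.088. In both conditions 0 members passed the test.

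Without defeat (Setd7 control against GFP control) 47 of 56 members were lower, where 48.6% of all genes were, and the median was -0.12 (all genes 0.0057). By limma, edgeR and DESeq2 0 members were called (background 0% by limma, 0.197% by DESeq2). An unadjusted p under 0.05 was reached by 6 lower and 0 higher members (background 3.7% and 4.31%). In 6 genes every Setd7 library was below every GFP library: Pcdhb5, Pcdhb10, Pcdhga6, Pcdhga12, Pcdhgb7 and Pcdhgc5 (background 4.09%). For 0 members was every Setd7 library above (background 4.17%). The 10 numbered alpha genes had a median of -0.099 with 8 lower. That median was -0.21 without GFP control replicate 1, -0.0049 with GFP control replicate 3 left out and 0.051 without the 3 libraries of lowest Th. Among the marker lists every member was higher with Setd7 for dopamine neurons (10 of 10, 26546 to 70599 and 65533 to 126705), oligodendrocytes (8 of 8, 358007 to 449427 and 389764 to 506553), oligodendrocyte precursors (4 of 4, 11785 to 12481 and 12708 to 14312) and microglia (5 of 5, 5734 to 7565 and 5841 to 14739) (summed levels in GFP control and Setd7 control). All were lower for serotonin neurons (4 of 4, 727 to 9197 and 2039.9 to 3771), thalamus (8 of 8, 21825 to 67387 and 18309 to 26320.5, 1 called by DESeq2) and forebrain excitatory neurons (4 of 4, 6361 to 17858 and 5199.7 to 8590.0, 1 called by DESeq2), with Gbx2 at 0 in Setd7 control replicate 1. Without the 3 libraries of lowest Th the members' median was -0.11.

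Pcdhgc5, a C-type isoform described at inhibitory synapses, was at 691, 863 and 808 in GFP control and 578, 576, 656 and 655 in Setd7 control. The Setd7 libraries were all lower, and the difference was -0.33 ± 0.12 (unadjusted p = 0.0171; adjusted p = 0.579, limma). Pcdhb11 was at 393, 343 and 279 in GFP control and 357, 254, 199.6 and 275 in Setd7 control, with Setd7 control replicate 1 inside the GFP range, and differed by -0.39 ± 0.15 (adjusted p = 0.579, limma). Pcdhb17, among the largest beta counts, was at 758, 897 and 919.9 with GFP and 607, 804, 652 and 693 with Setd7, overlapping in Setd7 control replicate 2, and differed by -0.32 ± 0.12 (adjusted p = 0.584, limma). Pcdhga6, a gamma A gene, was at 853, 888 and 819 with GFP and 680.3, 635, 755 and 765 with Setd7. The groups did not overlap, with a difference of -0.28 ± 0.12. Pcdhgb7 was at 673, 612 and 579 with GFP and 404, 533, 575 and 561 with Setd7, apart by a few counts at the nearest pair of libraries.

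After defeat (Setd7 defeat against GFP defeat) the lowest values were those of numbered alpha genes. By limma, edgeR and DESeq2 0 of 56 members were called (background 0% by limma and 0.0338% by DESeq2), 43 were lower (background 49.2%), and the median was -0.10 (all genes 0.0032). All 10 numbered alpha genes were lower, with a median of -0.44, against -0.057 for beta and -0.09 for gamma genes. At an unadjusted p under 0.05 the 4 lower members were all alpha genes (Pcdha1, Pcdha2, Pcdha3 and Pcdha5; background 2.26%), and 0 were higher (background 2.59%). Both Setd7 libraries were below all 4 GFP libraries for 7 genes, Pcdha1, Pcdha2, Pcdha3, Pcdha5, Pcdha10, Pcdha12 and Pcdhb5 (background 6.98%). They were above for Pcdhb10 and Pcdhgc3 (background 7.09%).

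Pcdha5 was at 179, 210.0, 242 and 195 in GFP defeat and 116 and 162 in Setd7 defeat, with Setd7 defeat replicate 1 the lowest of all libraries. It differed by -0.58 ± 0.18 (unadjusted p = 0.00689; adjusted p = 0.99, limma). Pcdha1 differed by -0.73 ± 0.25 and was lowest in Setd7 defeat replicate 2 (adjusted p = 0.99, limma). Pcdha3, at 223, 232, 208 and 263 with GFP and 169 and 172 with Setd7, differed by -0.43 ± 0.19, and Pcdha2, at 251, 207, 218 and 247 with GFP and 186 and 132 with Setd7, by -0.55 ± 0.25. Both Setd7 defeat libraries were below all GFP defeat libraries for each of these genes. For Pcdha2 the Setd7 defeat mean (159) was near those of GFP control (161) and Setd7 control (154). Its GFP defeat mean was the high one (231). Summed, the numbered alpha genes stood at 1619, 1535, 1547 and 1617 in GFP defeat and 1181 and 1163 in Setd7 defeat. Pcdhac2 stood at 1526, 1888, 1902 and 1714 with GFP and 1902 and 1916 with Setd7. The C-type share of the alpha sum was accordingly 52.9, 59.4, 59.2 and 54.5% in GFP defeat and 64.4 and 65% in Setd7 defeat, higher in both Setd7 libraries than in any other library of the series (the others 52.9 to 61.2%). This share is made of the same alpha counts, so it adds no separate result. How often such a share sets 2 libraries apart was not counted.

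The median over all members rests on Setd7 defeat replicate 1. Without Setd7 defeat replicate 1 the median over all members after defeat was 0.014, with 27 of 56 lower, and without replicate 2 it was -0.17. For the numbered alpha genes the median was between -0.55 and -0.37 whichever library was left out, and -0.45 without the 3 libraries of lowest Th. In this comparison every marker was higher for microglia (5 of 5, 6148 to 7357 and 6776 to 8864), meningeal fibroblasts (5 of 5, 688 to 1209 and 1148 to 4225) and endothelial cells (3 of 3, 6844 to 7506 and 8005 to 8618), and lower for thalamus (8 of 8, 20362 to 36138 and 18010.0 to 25068), with summed levels in GFP defeat and Setd7 defeat. Their part in the lower alpha counts was not tested.

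The interaction asks whether the Setd7 difference after defeat is another than without defeat. By limma, edgeR and DESeq2 0 members were called (background 0% by limma and 0.00563% by DESeq2), 27 were below and 29 above 0 (background 49.9% below), with a median of 0.0066 (all genes 0.00067). Without Setd7 defeat replicate 1 the median was 0.16 with 16 below 0, and without replicate 2 it was -0.065. At an unadjusted p under 0.05 there were 2 members above and 0 below 0 (background 2.51% and 2.45%). These were Pcdhb10 and Pcdhb17. Counts of Pcdhb10 were with GFP 348, 339 and 282 (control) and 315, 321, 264 and 208 (defeat), and with Setd7 269, 276, 255 and 262 (control) and 329 and 329 (defeat). With Setd7 all libraries were lower without defeat, and all were higher after it, without overlap either time. How many of all genes reverse in this way was not counted, and Pcdhb10 was picked for the smallest interaction p of the 56 members. The interaction was 0.58 ± 0.20 (unadjusted p = 0.0128; adjusted p = 0.942, limma). For Pcdhb17 it was 0.42 ± 0.18, at 738, 836, 738 and 662 in GFP defeat and 738 and 865 in Setd7 defeat. The numbered alpha genes had an interaction median of -0.36, with 9 of 10 below 0 and 0 of them at an unadjusted p under 0.05. Markers lay above 0 in every member for serotonin neurons (4 of 4, median 0.59), meningeal fibroblasts (5 of 5, median 1.49) and endothelial cells (3 of 3, median 0.12), and below for dopamine neurons (10 of 10, median -0.92) and oligodendrocyte precursors (4 of 4, median -0.22). All 5 meningeal fibroblast markers had an unadjusted p under 0.05, and the part of the markers was not tested. The larger alpha differences after defeat were thus not shown to differ from those without defeat.

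**Figure D5:**
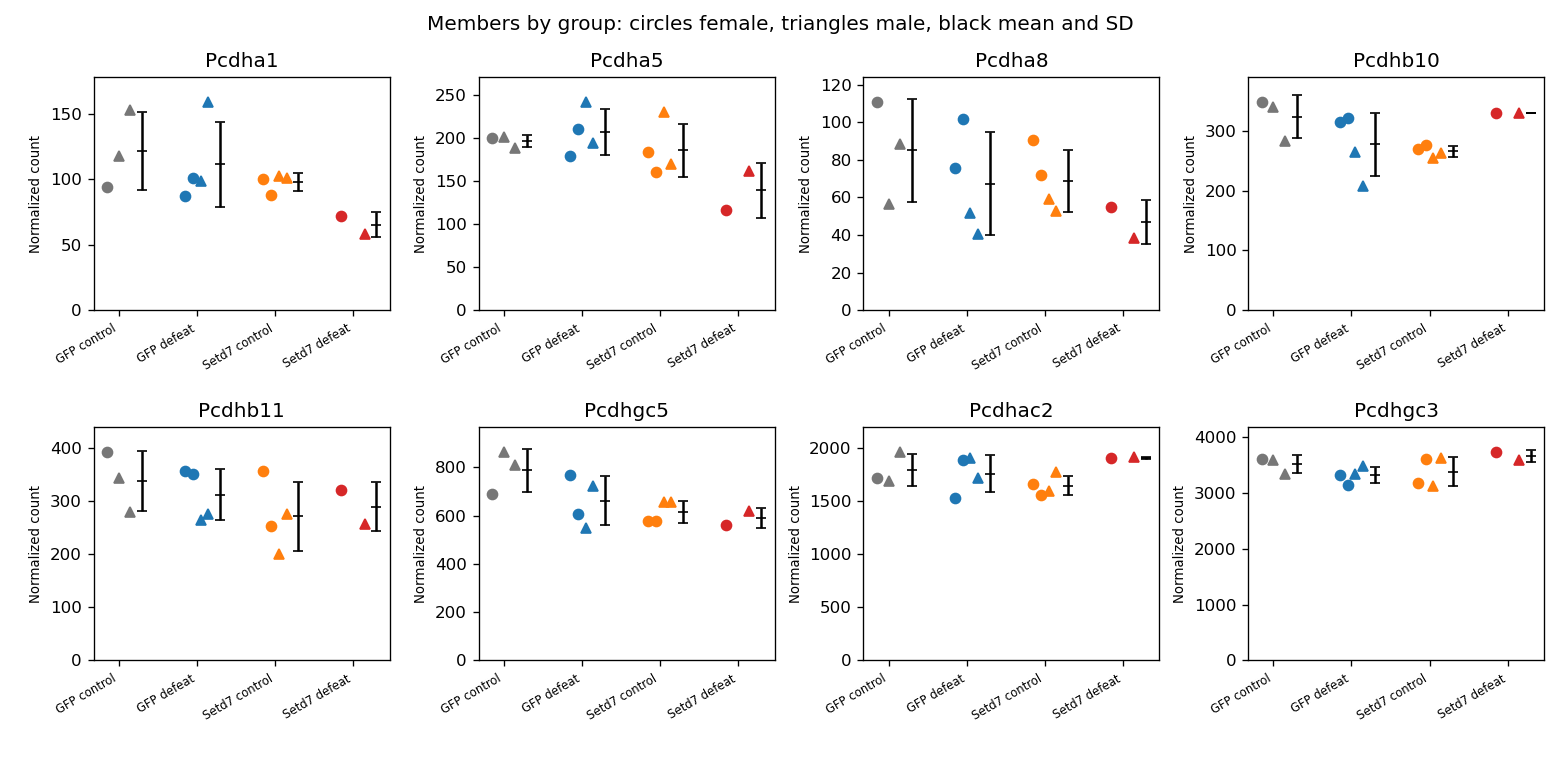
Normalized counts of 8 members by group; circles are female and triangles male libraries, black marks the group mean with SD, and every vertical axis starts at 0. Pcdha1 is lowest in Setd7 defeat (72.2 and 58.6), Pcdhb10 lies together in Setd7 defeat (329 and 329), and the circles of Pcdha8 lie above the triangles of the same group.

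Defeat itself was compared within each virus. With GFP (GFP defeat against GFP control) 0 of 56 members were called by limma, edgeR or DESeq2 (background 0% by limma, 0.479% by DESeq2). Of the members 33 were lower (background 50.4%), with a median of -0.029 (all genes -0.002), and -0.091 without the 3 libraries of lowest Th. With single libraries left out the median ran from -0.065 (without GFP defeat replicate 1) to 0.0077 (without GFP defeat replicate 4, with 27 members lower), so its sign was not stable. An unadjusted p under 0.05 was found for 2 lower members and 2 higher ones (background 4.38% and 4.87%). Every defeat library was below every control library for Pcdhb19, Pcdhga10, Pcdhga12, Pcdhgb6 and Pcdhgb7 (background 4.74%), and above for Pcdha2 (background 4.26%). This comparison shares the GFP control libraries with that of Setd7 without defeat, so the values of both depend on those libraries. Pcdhga12 was -0.24 ± 0.10 here and -0.25 ± 0.10 there, and Pcdhgb7 -0.24 ± 0.12 and -0.26 ± 0.12.

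Pcdha2 counts with GFP were 104, 197 and 181 (control) and 251, 207, 218 and 247 (defeat). GFP control replicate 1 was far below the other controls, and the difference was 0.60 ± 0.22 (unadjusted p = 0.0184; adjusted p = 0.462, limma). Pcdhgc4, at 1264, 1434 and 1354 (control) and 1562, 1299, 1647 and 1667 (defeat), overlapped in GFP defeat replicate 2 and differed by 0.21 ± 0.086 (adjusted p = 0.493, limma). Pcdhga10, at 595, 599 and 574 (control) and 547, 424, 489.8 and 461 (defeat), differed by -0.29 ± 0.12 (adjusted p = 0.497, limma). Here every marker was higher after defeat for dopamine neurons (10 of 10, 26546 to 70599 and 27022 to 114574), serotonin neurons (4 of 4, 727 to 9197 and 4715 to 12258), oligodendrocytes (8 of 8, 358007 to 449427 and 417135 to 550394, 1 called by DESeq2) and oligodendrocyte precursors (4 of 4, 11785 to 12481 and 14131 to 14729.6, 1 called by DESeq2), and lower for meningeal fibroblasts (5 of 5, 959 to 1265 and 688 to 1209) (summed levels in GFP control and GFP defeat). Thalamus markers were lower for 7 of 8 (21825 to 67387 and 20362 to 36138). Their part in the protocadherin values was not tested.

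With Setd7 (Setd7 defeat against Setd7 control) 0 members were called by the same tools (background 0% by limma and 0.0394% by DESeq2). Lower values were found for 37 of 56 (background 52%), with a median of -0.065 (all genes -0.0068), and without Setd7 defeat replicate 1 the median was 0.074 with 21 lower. All 4 members at an unadjusted p under 0.05 were alpha genes (background 1.13% lower and 1.45% higher): Pcdha1 (-0.58 ± 0.25), Pcdha5 (-0.42 ± 0.18), Pcdha3 (-0.41 ± 0.19) and, in the other direction, Pcdhac2 (0.21 ± 0.097). Counts of Pcdhac2 with Setd7 were 1659, 1559, 1599.8 and 1771 (control) and 1902 and 1916 (defeat), without overlap. With GFP they were 1719, 1690.5 and 1963 (control) and 1526, 1888, 1902 and 1714 (defeat), overlapping. The adjusted p of these genes was 0.9999 (limma). Groups did not overlap for Pcdha1 and Pcdha3, which were lower (background 4.96%), and for Pcdhac2, Pcdhb4 and Pcdhb10, which were higher (background 4.18%). In the same libraries every marker was higher after defeat for serotonin neurons (4 of 4, 2039.9 to 3771 and 5811 to 12566), meningeal fibroblasts (5 of 5, 843 to 1546 and 1148 to 4225, 1 called by DESeq2) and endothelial cells (3 of 3, 6781 to 7239 and 8005 to 8618) (summed levels in Setd7 control and Setd7 defeat). Their part in these values was not tested. The comparison shares Setd7 defeat with that of Setd7 after defeat, so their alpha values are not independent.

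Averaged over virus, defeat went with 0 called members by all 3 tools (background 0% by limma and 0.0451% by DESeq2), 34 lower (background 49.7%) and a median of -0.036 (all genes 0.00071). Pcdha8 was the 1 member at an unadjusted p under 0.05 (background 2.83% lower and 2.34% higher), with a difference of -0.51 ± 0.18 (adjusted p = 0.922, limma). Pcdhgb6 differed by -0.15 ± 0.068 and Pcdhga10 by -0.19 ± 0.09. Without Setd7 defeat replicate 1 the median was -0.013 and without replicate 2 -0.091. For 0 members were all defeat libraries below or above all others (background 0.062% and 0.0225%). Pcdhgc3, the most abundant per kilobase, differed by 0.018 ± 0.054. All markers of a list were higher after defeat for dopamine neurons (10 of 10, 26546 to 126705 and 27022 to 114574), serotonin neurons (4 of 4, 727 to 9197 and 4715 to 12566), oligodendrocyte precursors (4 of 4, 11785 to 14312 and 13776 to 14729.6), meningeal fibroblasts (5 of 5, 843 to 1546 and 688 to 4225) and endothelial cells (3 of 3, 6781 to 7239 and 6844 to 8618), and lower for thalamus (8 of 8, 18309 to 67387 and 18010.0 to 36138) (summed levels in control and defeat libraries), and their part was not tested.

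Sex was a term of the same fit, and 0 of 56 members were called by limma, edgeR or DESeq2 (background 0.062% by limma, 0.0563% by edgeR and 0.0957% by DESeq2). Of these 30 were higher in females (background 48.9%), with a median of 0.0047 (all genes -0.0031). The median was -0.021 without Setd7 control replicate 2 and 0.037 without Setd7 defeat replicate 2, so its sign was not stable either. Among 22 beta genes 18 were higher in females (median 0.074), while 8 of 10 numbered alpha genes were lower (median -0.15). Of members at an unadjusted p under 0.05, 3 were higher and 1 was lower in females (background 2.06% and 1.81%).

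Pcdha8 was higher in females in each group. Its counts were lowest 55.2, median 83, highest 111 in 6 female libraries, and lowest 38.7, median 53, highest 88.3 in 7 male libraries. With GFP the female values were 111 (control) and 75.5 and 102 (defeat), and the male values 56.4 and 88.3 (control) and 51.7 and 40.3 (defeat). With Setd7 they were 90.6 and 72 (control) and 55.2 (defeat) in females, and 59.3 and 53 (control) and 38.7 (defeat) in males, so every female library was above every male library of its group. How many of all genes separate the sexes within every group was not counted. Pcdha8 was picked for the smallest p of the 56 members, so its pattern is that of a chosen extreme. Over all groups the sexes overlapped, as they did for every member (background 0.0789% lower and 0.0845% higher in females). The difference was 0.67 ± 0.17 (unadjusted p = 0.00182), and after adjustment over all genes p was 0.999 (limma). Pcdhb11 (lowest 254, median 354, highest 393 in females; lowest 199.6, median 275, highest 343 in males) differed by 0.36 ± 0.11, and Pcdhb8 by 0.32 ± 0.14. Every marker was higher in females for serotonin neurons (4 of 4, 727 to 12258 and 2130.3 to 12566) and meningeal fibroblasts (5 of 5, 688 to 1265 and 838 to 4225), and lower for thalamus (8 of 8, 18309 to 67387 and 18010.0 to 26320.5) (summed levels in males and females), and their part was not tested.

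Genes that work with the clusters were counted from lists. Of 12 protocadherins outside the clusters, adhesion genes with their own promoters, 5 were lower with Setd7 averaged over defeat (median 0.014), 5 without defeat and 10 after defeat. The most abundant by count, Pcdh10, Pcdh17 and Pcdh9, had means of 15801, 13481 and 12874. The clustered genes had a median of -0.13 in the averaged comparison, and the lists were not tested against each other. Of 23 regulators of promoter choice and silencing at the clusters (CTCF, cohesin and its loader, DNA methylation and histone H3 lysine 9 methylation factors), 15 were lower with Setd7 averaged over defeat (median -0.022), 19 without defeat and 11 after defeat. Pds5b and Rad21, both of the cohesin machinery, had mean counts of 5713 and 4698. Of 16 partners and signalling genes (kinases, the WAVE actin complex, cleaving enzymes), 9 were lower with Setd7 averaged over defeat (median -0.0055), 8 without defeat and 9 after defeat. Cyfip2, Ret and Nckap1 were the most abundant, and Ret, a receptor kinase able to phosphorylate protocadherins, ran from 5811 to 30053. Of 15 neighbouring genes of the same chromosome region, 6 were lower with Setd7 averaged over defeat (median 0.017), 6 without defeat and 5 after defeat. Zmat2, Hdac3 and Diaph1 had the largest mean counts among them (3369, 2039.5 and 2037). The summed counts of these neighbours had a CV of 1.68%. It was 8.52% for the alpha sum, 8.01% for the beta sum, 4.88% for the gamma sum and 3.98% for the sum of all 3 clusters. Of the 66 genes in these 4 lists 0 were called in any of the 8 comparisons by limma, edgeR or DESeq2, with 0 to 5 at an unadjusted p under 0.05 (0 to 7.58%). In the averaged Setd7 comparison they were 3 of 66, 4.55%, where 7.12% of all genes were. Of all genes 49% were lower averaged over defeat, 48.6% without it and 49.2% after it.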

How the data were processed

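RNA from VTA punches was sequenced from 13 libraries. Per the submitters' processing notes Bowtie2, featureCounts, DESeq2 and build GRCm39 were named, without versions. The authors deposited 1 table of normalized counts (a signal scale: read counts divided by a DESeq2 size factor per library). All 341432 values were whole multiples of what 1 read is worth (tolerance 0.01 of a read), so reads were recovered for the count tests. The recovered reads, all assigned to genes, came to 26.5 to 50.8 mega-reads a library, and replicate libraries differed by more than sampling noise.

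Genes with at least 10 normalized counts in at least 2 libraries were kept, and 8509 were dropped. limma 3.58.1 with a mean-dependent prior (R 4.3.3) was fitted to log2(normalized count + 1) with 4 group means and sex, and p-values were adjusted (Benjamini-Hochberg) over all 17755 genes. Log2 differences are on that scale, which understates changes of low genes. Calls needed an adjusted p under 0.05. Alternatives were edgeR 4.0.16 and DESeq2 1.42.0 on the recovered reads, other pseudocounts, filters and scaling, a fit without sex, a robust prior and leaving out each library. Leaving out the 3 libraries of lowest Th, counting lower members and the numbered alpha medians were added after seeing the data. The limma fit was tested on simulated data, and those of edgeR and DESeq2 were not. An exact permutation test was used for Setd7.

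Lengths of first exons came from GENCODE M21 (GRCm38), another build than the table's, so no coordinates are given, and no sequences. Members, gene lists (non-clustered protocadherins, promoter choice regulators, partners, neighbours, and cell type markers) and tests were chosen with earlier results of these data known. Genes named individually were the C-type isoforms, the 3 others with the highest mean per subgroup, the 3 smallest p of each comparison, the 2 largest and smallest CVs, genes at the filter's edge, genes whose groups did not overlap or with an unadjusted p under 0.05 (chosen after their values were seen), and the 3 most abundant genes of each list, of which 1 is not reported here.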

Additional observations from a re-analysis of the deposited data

Results flagged for a closer look

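In groups of 4 libraries, a library was marked where its gap to the nearest other library, as a share of the group's range, was above Dixon's 95% critical value. Of 64 groups of values checked in this way 4 were marked, and chance marks about 1 in 20. Pcdha1 was at 88.3 in Setd7 control replicate 2, where the other libraries of the group were at 100.5 to 102. Pcdhga6 was at 1055 in GFP defeat replicate 1, where the other libraries of the group were at 756 to 788. Pcdhgb2 was at 401 in Setd7 control replicate 1, where the other libraries of the group were at 481 to 493. Pcdhgb6 was at 757 in GFP defeat replicate 2, where the other libraries of the group were at 836 to 845. GFP defeat replicate 1 is among the 3 libraries of lowest Th.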

How the results depend on the processing

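Under 23 alternatives 0 members were called in any of the 8 comparisons (edgeR, DESeq2, limma with other settings), and the smallest adjusted p of any member was 0.186. A minimum mean of 30 left 54 members to test, and the fit without sex gives no comparison of the sexes. Leaving out each library moved the median over all members to -0.17 to 0.014 for Setd7 after defeat, -0.15 to 0.074 for defeat with Setd7, -0.065 to 0.16 for the interaction and -0.15 to -0.048 for Setd7 averaged over defeat. The members lower ran over 27 to 50, 21 to 39 and 16 to 37 in the first 3 of these comparisons. Apart from the 39, which came without Setd7 control replicate 1, the extremes came from leaving out Setd7 defeat replicate 1 or 2, which leaves 1 library in that group, assumed to vary like the others. Without the 3 libraries of lowest Th the median was -0.091 for defeat with GFP, 0.077 for the interaction and, over numbered alpha genes, -0.098 for Setd7 averaged; the cause was not tested. Of 183 medians 9 moved by at least the spread between libraries. For single members 779 differences were recomputed, and they belonged to 34 results of named members, not to all members. Of these 9 changed sign, all near 0. Members named for a small p seldom change sign, so this count does not measure how stable the other members are. For Pcdhac2 (Setd7 averaged) leaving out a library gave -0.025 to 0.038, with -0.017 without GFP control replicate 2, -0.025 without GFP defeat replicate 1, -0.00221 without GFP defeat replicate 4, -0.00632 without Setd7 control replicate 4 and -0.00762 without Setd7 defeat replicate 1, and -0.00441 without the 3 libraries of lowest Th. For Pcdhgc3 (defeat averaged) it ran from -0.00100 to 0.037, with -0.00100 without GFP control replicate 3, -0.000325 without Setd7 control replicate 3 and -0.0102 without the 3 libraries of lowest Th. No paired analysis was possible because the labels give no replicate numbers shared between groups, and the numbers used here follow accession order. Few or no reads limit what can be said of the members near 0 (Pcdha4, Pcdha6, Pcdha7), and why their reads are few was not tested. The 2 libraries of Setd7 defeat limit every comparison with that group.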
